A study of Mus musculus with 4 samples.

Results

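The genes examined were 8 receptors for nucleotides, nucleosides and lipids: P2ry12, P2ry13, P2ry14, P2ry6, P2rx4, P2rx7, Adora3 and Gpr34. For each receptor, every peak deposited for the 4 libraries was taken that overlapped the gene body in the GENCODE M21 annotation of GRCm38 or the 10 kb on either side. The windows of P2ry12 and P2ry13 on chromosome 3, and those of P2rx4 and P2rx7 on chromosome 5, run together, so the 8 genes gave 6 windows. Peaks with a −log10 q of 2 or more, called strict here, were merged across libraries into regions. The 6 windows held 96 of the 155546 regions in the data.

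Purinergic receptors let microglia, the macrophages of the brain, sense nucleotides that leak from damaged or active cells. P2ry12 and P2ry13 respond to ADP, and P2ry12 guides microglial processes towards injury. P2ry6 responds to UDP and P2ry14 to UDP-glucose, P2rx4 and P2rx7 are ion channels opened by ATP, Adora3 encodes an adenosine receptor, and Gpr34 encodes a receptor for lysophosphatidylserine. P2ry12 and Gpr34 are widely used as markers of resting microglia.

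Accessibility was measured by ATAC-seq, in which the Tn5 transposase cuts open chromatin and leaves sequencing adapters there. The cells were microglia sorted by flow cytometry from the brains of untreated 3-month-old C57BL/6 mice, isolated without enzymes, and PCR amplification ran for 12 cycles. There were 2 libraries labelled WT and 2 labelled IRF8KO, a knockout of IRF8. This protein of the interferon regulatory factor family controls transcription in macrophages and binds DNA together with PU.1. The labels give neither the allele, nor whether the gene was removed from all cells, nor whether the libraries of a genotype came from separate mice, so the p-values below measure only the spread between these libraries.

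The WT libraries held 46948938 and 48896408 tags and the IRF8KO libraries 78793572 and 66224648, with tags of 50 bp in WT and 49 bp in IRF8KO, so that depth, tag size and genotype cannot be told apart. Levels are given as the normalised pileup, the pileup at the highest summit of a region per 1000000 tags of the library. On this scale the median region lay lower in IRF8KO replicate 1 than in the other libraries: over the 58550 regions with a peak in all 4 libraries, the median log2 level of replicates 1 and 2 was -0.38 and -0.70 for WT against -1.17 and -0.53 for IRF8KO. The median log2 change of all these regions, IRF8KO minus WT, was -0.31. Changes of single regions are therefore also given after the libraries were centred on their medians. The 8 microglia or macrophage markers reported here, among them Csf1r, Cx3cr1 and Tmem119, had a strict peak at their transcription start site (TSS) in all 4 libraries. The TSS region of Irf8 itself was open in all 4 libraries, at 2.07 and 1.49 in WT against 0.863 and 1.36 in IRF8KO (log2 change -0.70, adjusted p = 0.415; -0.39 after centring, adjusted p = 0.198), which does not check the labels, because the part of the gene that was deleted is not given.

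Sequences are shown first for the regions called lower in IRF8KO and for 2 regions with an ETS-IRF composite that had strict peaks in WT only and entered no test. The last sequence, for contrast, is from an Adora3 region that was higher in IRF8KO. It was picked for the lowest adjusted p among the receptor regions called higher only after centring. Each sequence is the stretch within 100 bp of a summit on the plus strand of GRCm38, 5′ to 3′, shortened where an exon begins. Capitals mark matches to the motifs searched on both strands: the ETS-IRF composite (GGAA, any 2 bases, GAAA), at which PU.1 and IRF8 can bind side by side, the PU.1 motif GAGGAAGT, the RUNX motif TGTGGTT, the AP-1 motif TGACTCA and the CEBP motif TTGCNNAA. A motif on the minus strand appears as its reverse complement. The interferon-stimulated response element (GAAA, any 2 bases, GAAA) was searched as well. The GGAA core is shared by the ETS-IRF and PU.1 motifs and the GAAA end by the ETS-IRF and interferon motifs, so matches can overlap.
P2ry6 intron, chr7:100944405-100944605: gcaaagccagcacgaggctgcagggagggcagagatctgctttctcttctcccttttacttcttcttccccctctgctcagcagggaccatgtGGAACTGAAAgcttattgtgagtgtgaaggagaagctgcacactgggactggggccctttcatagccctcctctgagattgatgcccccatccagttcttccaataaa
Adora3 TSS, chr3:105904341-105904420: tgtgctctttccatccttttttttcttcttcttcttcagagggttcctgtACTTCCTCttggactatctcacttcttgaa
Adora3 intron, chr3:105892575-105892775: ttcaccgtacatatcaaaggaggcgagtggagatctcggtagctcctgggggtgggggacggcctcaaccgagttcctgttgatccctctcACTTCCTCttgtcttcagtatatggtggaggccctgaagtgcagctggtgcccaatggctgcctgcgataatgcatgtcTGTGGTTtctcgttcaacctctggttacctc
Adora3 intron, chr3:105877614-105877814: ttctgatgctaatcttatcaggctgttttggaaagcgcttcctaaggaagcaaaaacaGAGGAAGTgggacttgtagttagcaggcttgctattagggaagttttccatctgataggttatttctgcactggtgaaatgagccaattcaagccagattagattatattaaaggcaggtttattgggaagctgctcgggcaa
P2ry13 upstream, chr3:59211834-59212034: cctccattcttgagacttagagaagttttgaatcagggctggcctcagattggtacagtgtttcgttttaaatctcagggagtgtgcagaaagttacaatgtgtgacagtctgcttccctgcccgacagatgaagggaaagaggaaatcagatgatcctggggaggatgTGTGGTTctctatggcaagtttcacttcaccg
Adora3 3′ flank, chr3:105915346-105915546: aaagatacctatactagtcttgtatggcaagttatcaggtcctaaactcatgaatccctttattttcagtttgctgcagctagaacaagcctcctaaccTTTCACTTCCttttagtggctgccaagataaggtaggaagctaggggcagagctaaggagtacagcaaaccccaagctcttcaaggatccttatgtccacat
P2ry12 intron, chr3:59225530-59225730: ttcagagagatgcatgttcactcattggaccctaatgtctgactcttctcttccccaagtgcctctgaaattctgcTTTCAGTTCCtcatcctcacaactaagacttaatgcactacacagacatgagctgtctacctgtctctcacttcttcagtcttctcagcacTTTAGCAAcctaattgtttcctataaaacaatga
Adora3 intron, chr3:105895305-105895505: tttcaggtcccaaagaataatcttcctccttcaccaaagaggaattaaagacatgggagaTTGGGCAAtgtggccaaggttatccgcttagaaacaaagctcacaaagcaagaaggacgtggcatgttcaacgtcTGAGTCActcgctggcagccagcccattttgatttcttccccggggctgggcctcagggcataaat

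The first 5 sequences lie in regions that were called lower in IRF8KO by the test described below. The P2ry6 intron holds an ETS-IRF composite at chr7:100944498-100944507, centred -2 bp from the summit, and each of the 3 Adora3 regions holds a PU.1 motif, centred -46, -5 and -38 bp from the summit in the order shown. Another Adora3 region, chr3:105900762-105901040, holds a PU.1 motif at -13 bp and was not called (log2 change -0.76, adjusted p = 0.309; -0.46 after centring, adjusted p = 0.0659). The P2ry13 stretch, from the fifth region called lower, holds a RUNX motif 72 bp from the summit. The Adora3 3′ flank and the P2ry12 intron hold ETS-IRF composites 4 and -19 bp from the summit, in regions that were strict in the 2 WT libraries only. The last sequence, with an AP-1 and a CEBP motif, is from a neighbouring Adora3 intron region that was called higher in IRF8KO, though only after centring. The stretch around the P2ry12 start site is exonic throughout and is not shown.

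Of the 96 regions, 55 had a deposited peak in all 4 libraries and could be compared as levels. The other 41 lacked a peak in at least 1 library, 23 of them being strict in a single library. Strict peaks in all 4 libraries were found in 51 regions (53.1%), against 31.0% of all regions in the data. The levels of the 55 regions were compared with limma, fitted over all 58550 regions with Benjamini-Hochberg adjustment, and regions with an adjusted p below 0.05 were called. By this test 6 receptor regions were lower and 1 was higher in IRF8KO. Over all regions tested, 6.82% were called lower and 2.81% higher in IRF8KO, so the receptor counts are to be read against these shares. After median centring 8 receptor regions were lower and 7 higher, where the shares of all regions were 12.5% and 13.3%. The 7 regions called without centring were also called with it, in the same direction.

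The regions that fell were at the start of the short Adora3 transcript, at the upstream start of P2ry12 and about 1 kb upstream of P2ry13. The others lay in an intron of P2ry6 and at 2 intronic positions of the long Adora3 transcript. The 1 region that rose lies in the P2rx4 window but within an exon of the neighbouring gene Camkk2. No region of the P2rx7, P2ry14 or Gpr34 genes was called without centring. The median log2 change of the 55 regions was -0.42, with 42 regions below 0, against a median of -0.31 and 71.4% below 0 for all regions. After centring 30 of the 55 were below 0, against 50.2% of all regions. Of the 55 regions, 37 were lowest in IRF8KO replicate 1 and 33 were highest in WT replicate 1. In bulk libraries, fewer cells with a region open and less opening per cell cannot be told apart.

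**Figure D1:**
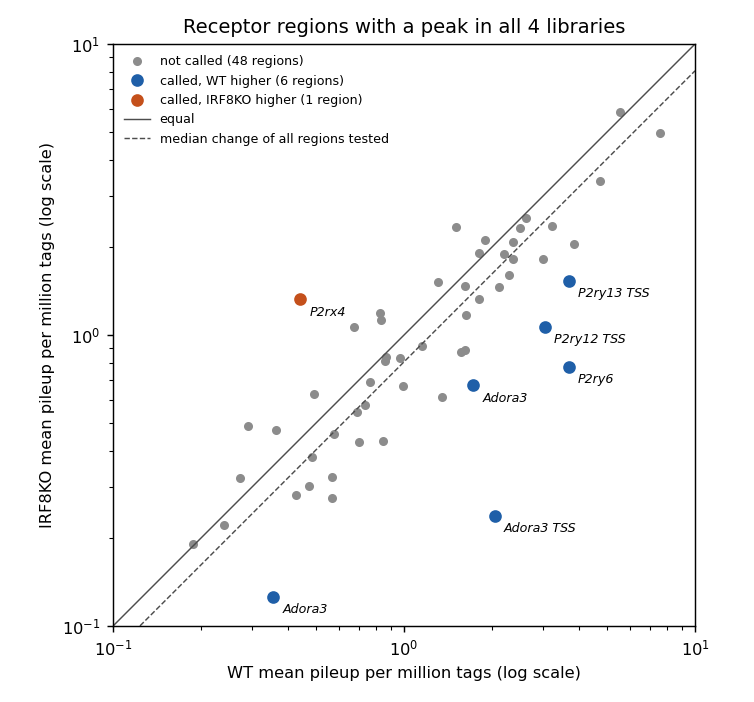
Mean normalised pileup (per 1000000 tags) in IRF8KO against WT (both axes logarithmic, 2 libraries per mean) for the 55 receptor regions with a peak in all 4 libraries. The solid line marks equal levels and the dashed line the median change of all regions tested, -0.31 on the log2 scale; the 6 regions called lower in IRF8KO lie below both lines, and the 1 called higher lies above them.

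The adenosine receptor gene Adora3 showed the largest difference of the 55 regions. Its TSS region, chr3:105904242-105904780, covers the first exon of the short coding transcript and an untranslated exon of Tmigd3, a gene that shares this locus. Its level was a normalised pileup of 2.22 and 1.88 in the WT libraries (replicate 1 first here and below) against 0.178 and 0.302 in the IRF8KO libraries. Both WT libraries lay far above both IRF8KO libraries. The WT mean of 2.05 ± 0.236 was 8.54-fold the IRF8KO mean of 0.240 ± 0.0879 (SD, n = 2 each), a log2 change of -3.14 ± 0.51 (standard error; limma adjusted p = 1.53e-07). After centring the change was -2.84 (adjusted p = 1.61e-13). On the authors' fold enrichment over local background, which was 9.96 and 10.8 in WT against 2.35 and 2.86 in IRF8KO, it was -2.002 (adjusted p = 0.00897). The pileups behind the IRF8KO values were only 14 and 20. In IRF8KO replicate 1 the peak was weak (−log10 q of 1.23) and its summit lay at 105904739, away from the summit at 105904441 in WT replicate 1.

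In addition, 2 regions inside the long Adora3 transcript fell. The region chr3:105892543-105892824, at -11.7 kb from the short transcript's start, was at 1.75 and 1.72 in WT against 0.558 and 0.785 in IRF8KO. The groups did not overlap, and the change was -1.39 ± 0.47 (adjusted p = 0.0383), -1.08 after centring (adjusted p = 0.000219) and -1.46 in fold enrichment (adjusted p = 0.0342). The region chr3:105877587-105877774, 6.82 kb downstream of the long transcript's start, was small throughout, at 0.383 and 0.327 in WT against 0.102 and 0.151 in IRF8KO, with pileups of 8 and 10 in the latter. Its change was -1.52 ± 0.46 (adjusted p = 0.0146), -1.21 after centring (adjusted p = 0.0112) and -1.20 in fold enrichment (adjusted p = 0.056), so its call was lost on the last scale. Neither IRF8KO peak there was strict (−log10 q of 0.406 and 1.96). The summit in IRF8KO replicate 1 lay at 105877498, outside the region, against 105877714 in WT replicate 1, so that value was measured at another position.

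Other regions of the Adora3 window were not called lower. A region at -9.07 kb from the short transcript's start, chr3:105895105-105895598, was at 1.53 and 1.49 in WT against 2.21 and 2.48 in IRF8KO. Every IRF8KO library was higher there, by 0.63 ± 0.43 on the log2 scale, which passed the test only after centring (0.93, adjusted p = 0.000195; adjusted p = 0.453 without). Its neighbour at chr3:105894807-105895023 gave 0.42, and 0.72 after centring (adjusted p = 0.0234). Large regions at chr3:105898145-105898714 and chr3:105891777-105892427 had levels that overlapped between genotypes, with changes of -0.07 and -0.09 (0.23 and 0.21 after centring, adjusted p = 0.393 and 0.465); the second of them holds an ETS-IRF composite. At the outer edge of the window, chr3:105861717-105862290 was at 1.58 and 1.12 in WT against 0.609 and 0.619 in IRF8KO; the change of -1.12 was called after centring (-0.81, adjusted p = 0.012) but not without it (adjusted p = 0.145), except when IRF8KO replicate 2 was left out (-1.13, adjusted p = 0.0312). The centred call was in turn lost without that library (-0.50, adjusted p = 0.201) and without WT replicate 1 (-0.73, adjusted p = 0.137). This last region lies 859 bp inside the window, and the next region beyond that edge is 3065 bp outside, with 0.682 and 0.532 in WT, no peak in IRF8KO replicate 1 and 0.151 in IRF8KO replicate 2.

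**Figure D2:**
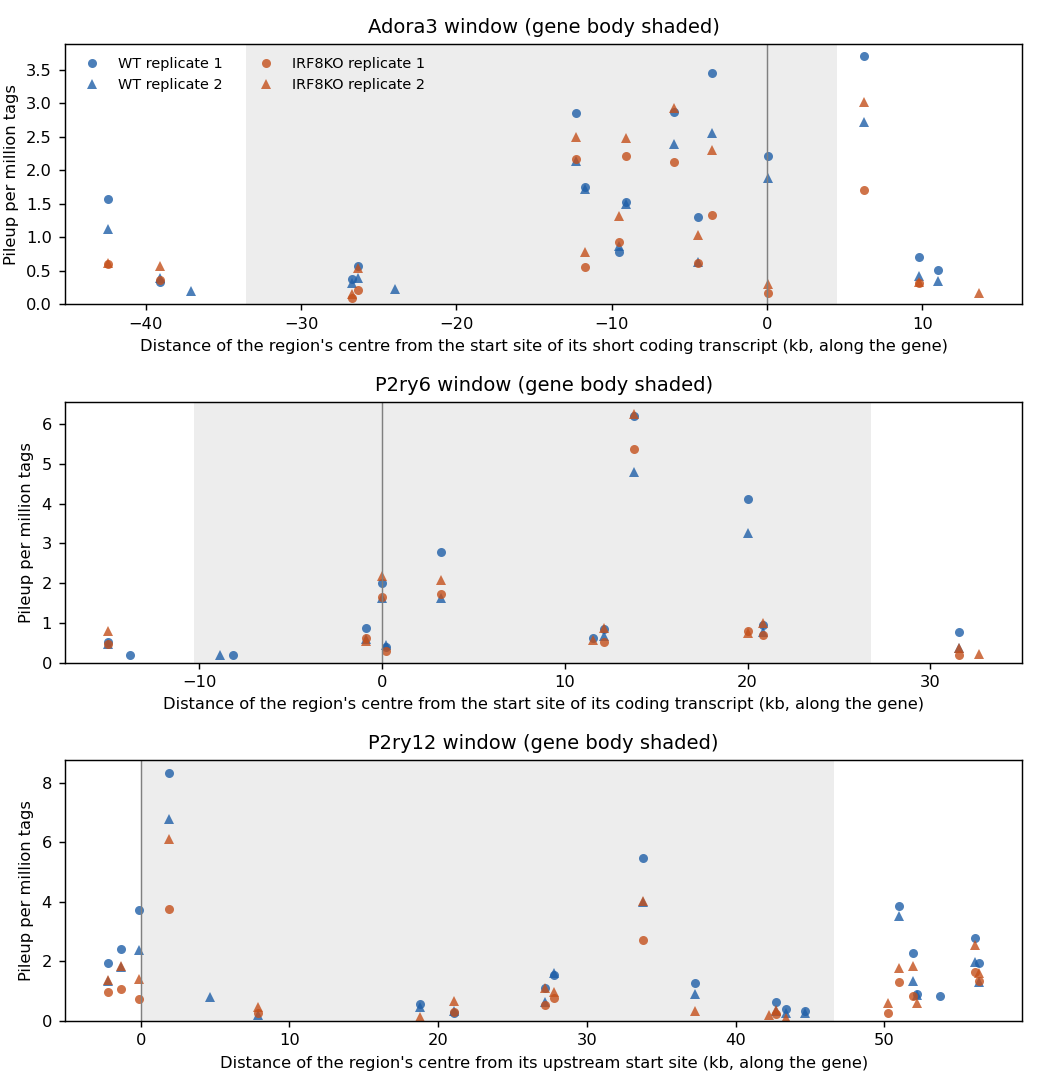
Normalised pileup (per 1000000 tags) of every region in the Adora3, P2ry6 and P2ry12 windows (y axes), against the distance of the region's centre from a start site in kb (x axes). Regions that lie in the P2ry13 window only are not drawn. Circles are replicate 1 and triangles replicate 2, blue for WT and orange for IRF8KO, and a library without a peak has no point. At the Adora3 start site the WT points are at 2.22 and 1.88 and the IRF8KO points at 0.178 and 0.302, while in the P2ry6 window the genotypes separate 20.01 kb from the start and overlap at the start.

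The P2Y receptors for ADP are neighbours on chromosome 3, where P2ry12, P2ry13 and P2ry14 all lie inside the gene Med12l. The TSS region of P2ry12, chr3:59262759-59263230, covers its first, untranslated exon and a coding exon of Med12l. Its level was 3.73 and 2.37 in WT against 0.749 and 1.39 in IRF8KO. The groups did not overlap, although each genotype varied between its libraries. The WT mean of 3.05 ± 0.958 was 2.85-fold the IRF8KO mean of 1.07 ± 0.453 (SD, n = 2 each), a log2 change of -1.54 ± 0.44 (adjusted p = 0.0079). After centring it was -1.24 (adjusted p = 1.28e-06), and on fold enrichment, at 6.51 and 5.57 in WT against 3.28 and 3.88 in IRF8KO, it was -0.75 and did not pass (adjusted p = 0.249). P2ry12 has another annotated start inside the gene. The region over it, chr3:59219939-59220324, was at 0.618 and 0.327 in WT against 0.241 and 0.362 in IRF8KO. The groups overlapped there, and the change of -0.60 was not called (limma adjusted p = 0.577). After centring it was -0.30 (adjusted p = 0.590).

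The P2ry13 region used as its TSS region, the highest of those reaching into the 1 kb on either side of the start, is chr3:59211683-59212114. Only its edge reaches that far: it is centred at -1.02 kb and its summits lie beyond 1 kb from the start, so its level is not that of the start site itself. It was at 3.86 and 3.52 in WT against 1.29 and 1.78 in IRF8KO. The groups were well separated, with means of 3.69 ± 0.239 and 1.54 ± 0.345 (SD, n = 2 each), a 2.40-fold difference. The log2 change was -1.28 ± 0.42 (adjusted p = 0.0294), -0.97 after centring (adjusted p = 2.33e-05) and -0.50 in fold enrichment (adjusted p = 0.337). The region directly over the P2ry13 start, chr3:59210803-59211076, was at 2.28 and 1.33 in WT against 0.825 and 1.84 in IRF8KO, where the genotypes overlapped and the change of -0.50 was not called (adjusted p = 0.596; -0.19 after centring, adjusted p = 0.594).

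The most accessible region of all 6 windows in WT lay in the first part of P2ry12, at chr3:59260763-59261191, in a P2ry12 intron and a Med12l coding exon. Its level was 8.35 and 6.79 in WT against 3.76 and 6.10 in IRF8KO. Both IRF8KO libraries were below both WT libraries, but the change of -0.65 ± 0.38 was not called (adjusted p = 0.342; -0.35 after centring, adjusted p = 0.0718), and fold enrichment was close to level, at 14.4 and 15.8 in WT against 16.3 and 16.9 in IRF8KO. The second large intron region, chr3:59228714-59229427, was at 5.47 and 3.99 in WT against 2.73 and 4.02 in IRF8KO, with overlapping groups, and it also holds an ETS-IRF composite. In the joint P2ry12 and P2ry13 window, 14 of the 15 regions compared had a change below 0, against 71.4% of all regions, with a median of -0.57. After centring 11 were below 0 and 4 above, against 50.2% of all regions below 0. In this window 2 regions were called lower, with or without centring, and 1 was called higher after centring, the intron region chr3:59241626-59242029 (0.93, adjusted p = 0.039).

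A smaller P2ry12 intron region, chr3:59225525-59225726, carries the ETS-IRF composite shown above. It was at 1.28 and 0.900 in WT, had no peak in IRF8KO replicate 1 and a weak one of 0.317 in IRF8KO replicate 2 (−log10 q of 0.688). Lacking a peak in 1 library, it entered no test. A region in the P2ry12 coding exon, chr3:59218089-59218277, had strict peaks of 0.319 and 0.245 in the WT libraries and no peak in either IRF8KO library.

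P2ry14, the receptor for UDP-glucose, had no region called without centring. Its TSS region, chr3:59153344-59153917, was at 1.26 and 1.37 in WT against 0.977 and 2.07 in IRF8KO. The IRF8KO libraries lay on either side of WT, and the change of 0.12 ± 0.45 was not called (adjusted p = 0.918; 0.42 after centring, adjusted p = 0.179). Within the gene, the intron region chr3:59119770-59120324, which holds an ETS-IRF composite, was at 4.49 and 3.19 in WT against 1.57 and 2.54 in IRF8KO, a change of -0.92 ± 0.41 that was called only after centring (-0.62, adjusted p = 0.00551; adjusted p = 0.159 without). An adjacent intron region, chr3:59120555-59120799, went the other way at 0.958 and 0.695 in WT against 1.03 and 1.34 in IRF8KO (0.53, adjusted p = 0.601; 0.83 after centring, adjusted p = 0.00675).

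For P2ry6, the UDP receptor linked to phagocytosis, an intron region was called lower and the start site was not called. The TSS region, chr7:100964263-100964549, was at 2.002 and 1.62 in WT against 1.65 and 2.19 in IRF8KO, overlapping, with a change of 0.08 ± 0.43 (adjusted p = 0.942; 0.38 after centring, adjusted p = 0.165). The intron region chr7:100944087-100944670, 20.01 kb downstream of that start, was at 4.11 and 3.27 in WT against 0.800 and 0.755 in IRF8KO. The WT libraries were both far above the IRF8KO libraries, which were nearly equal. The means of 3.69 ± 0.593 and 0.777 ± 0.0315 (SD, n = 2 each) differed 4.75-fold, a log2 change of -2.24 ± 0.44 (adjusted p = 2.68e-05), -1.93 after centring (adjusted p = 1.4e-11) and -1.20 in fold enrichment (adjusted p = 0.0144).

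The strongest P2ry6 region, chr7:100950248-100950959, lies between these positions, 13.8 kb downstream of the start. It was at 6.20 and 4.81 in WT against 5.38 and 6.25 in IRF8KO, with overlapping groups and a change of 0.09 ± 0.38 (adjusted p = 0.927; 0.39 after centring, adjusted p = 0.0495). The largest region of P2ry6 was thus not called lower, and after centring it was called higher, close to the threshold. A region beyond the gene's end, chr7:100932648-100933036, was at 0.767 and 0.368 in WT against 0.190 and 0.362 in IRF8KO, a 2.05-fold difference of means. Its change of -1.02 was not called (adjusted p = 0.258; -0.71 after centring, adjusted p = 0.126), but without IRF8KO replicate 2 it was on the uncentred scale (-1.48, adjusted p = 0.0139) and not after centring (-0.85, adjusted p = 0.19). With 1 library left out, with or without centring, it ran from -1.55 to -0.34.

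Neither of the ATP-gated channels had a called region at its start site. The P2rx4 TSS region, chr5:122707192-122708279, was at 2.32 and 2.43 in WT against 1.60 and 2.05 in IRF8KO. Both IRF8KO libraries were below WT, but the change of -0.39 ± 0.43 was not called (adjusted p = 0.674), and it was -0.09 after centring. The P2rx7 TSS region, chr5:122643772-122644557, was at 2.24 and 1.55 in WT against 1.87 and 2.37 in IRF8KO, overlapping, with a change of 0.17 ± 0.43 (adjusted p = 0.867; 0.48 after centring, adjusted p = 0.0659). A miss at this threshold does not show equal levels. In simulated data with the spread of the uncentred libraries, limma recovered 4% of 100 regions changed by 1 on the log2 scale and 69% of 100 changed by 2. The centred fit was not simulated, so these shares do not apply to it.

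In the window of these channels the region chr5:122731950-122732673 rose. It lies 24.7 kb downstream of the P2rx4 start, in an untranslated exon of Camkk2, a kinase gene. Its level was 0.532 and 0.348 in WT against 1.23 and 1.42 in IRF8KO, a 3.01-fold difference without overlap. The log2 change was 1.62 ± 0.50 (adjusted p = 0.0186) and 1.92 after centring (adjusted p = 2.42e-08), but on fold enrichment it was 0.79 and not called (adjusted p = 0.213). A region at -5.15 kb from the P2rx4 start, chr5:122702223-122702565, was at 0.831 and 0.511 in WT against 0.977 and 1.15 in IRF8KO, and its change of 0.70 was called only after centring (1.005, adjusted p = 0.002; adjusted p = 0.467 without). This region, higher in both IRF8KO libraries, holds an ETS-IRF composite too.

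Gpr34, on chromosome X inside an intron of Cask, had the lowest start-site level of the 8 receptors in WT. Its TSS region, chrX:13631996-13632208, was at 0.958 and 0.736 in WT against 0.279 and 0.589 in IRF8KO. Both IRF8KO libraries were below WT, with a 1.95-fold difference of means and a log2 change of -1.05 ± 0.52 that was not called (adjusted p = 0.229; -0.75 after centring, adjusted p = 0.0525). The call depended on the fit: without IRF8KO replicate 2 the change was -1.59 and called (adjusted p = 0.00411) but -0.96 and not called after centring (adjusted p = 0.0548), without IRF8KO replicate 1 it was -0.51 and not called (adjusted p = 0.614), and with centring and the replicate number as a block the adjusted p was 0.0462. The highest Gpr34 region, in its intron at chrX:13636234-13636727, was at 1.58 and 0.736 in WT against 0.673 and 1.16 in IRF8KO, with overlapping groups.

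**Figure D3:**
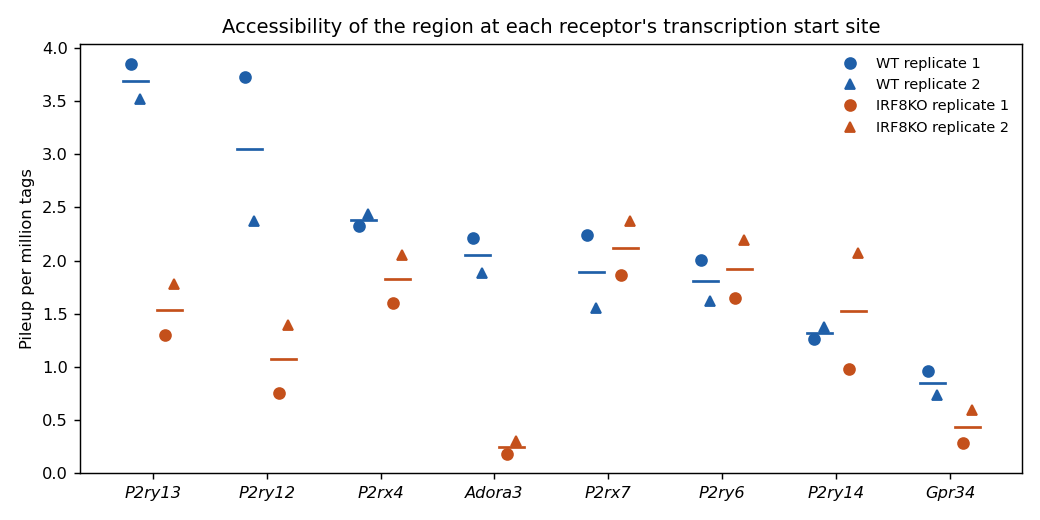
Normalised pileup (per 1000000 tags) (y axis) of the TSS region of each receptor, for P2ry13 the region centred upstream of its start (x axis) in WT (blue) and IRF8KO (orange); circles are replicate 1, triangles replicate 2, and bars the mean of 2 libraries. For P2ry13, P2ry12 and Adora3 both IRF8KO points lie well below both WT points, and for P2rx7, P2ry6 and P2ry14 the genotypes overlap.

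The start sites were also set in order of level, with P2ry13, unlike the other receptors, taken at the region directly over its start. Each level is the highest summit in a region, so a longer region could reach a higher level. The P2rx4 region spans 1088 bp and that of Gpr34 213 bp. In WT the order of means ran from P2ry12 through P2rx4, Adora3, P2rx7, P2ry6, P2ry13 and P2ry14 to Gpr34. Of the 7 neighbouring pairs in this order, 5 had overlapping WT libraries, and the ranges were separate between P2rx4 and Adora3 and between P2ry14 and Gpr34. In IRF8KO the order began with P2rx7, P2ry6 and P2rx4, went on with P2ry14, P2ry13 and P2ry12, and ended with Gpr34 and Adora3, and 6 of the 7 neighbouring pairs overlapped. Of the 8 TSS regions 3, that of P2ry13 upstream of its start among them, were called lower in IRF8KO and none higher, and the same 3 were at least 2-fold lower without overlap, where 2.59% of 11532 TSS regions of protein-coding genes were called lower, 0.676% higher, and 5.87% lower by the 2-fold rule. After centring the same 3 were called, and the shares of all TSS regions were 7.34% and 5.72%. With P2ry13 taken at the region over its start, 2 were called, with or without centring. At an unadjusted limma p under 0.05, 9 of the 55 receptor regions were lower and 1 was higher, where 14.6% and 5.63% of all regions tested were.

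The protein-coding genes whose TSS levels were most like those of P2ry12 over the 4 libraries were Ceacam1, Tlr9 and Pld1, out of 12736 genes compared. Likeness was the root mean square difference in log2 level, which was 0.224 for Ceacam1, 0.229 for Tlr9 and 0.238 for Pld1. Tlr9, an endosomal receptor for DNA, was at 4.03 and 3.09 in WT against 0.838 and 1.56 in IRF8KO. With 4 libraries many genes can share such a pattern, and the measure reflects level as well as difference.

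Regions specific to a genotype were also counted. WT-specific regions, strict in both WT libraries and without any peak in IRF8KO, numbered 5 of 96, against 5.58% of all regions. IRF8KO-specific regions numbered 3, against 3.86%. Both counts are near the shares of all regions. Besides the P2ry12 exon, the WT-specific regions were chr3:59204433-59204543 near P2ry13 (0.618 and 0.552), chr3:105915390-105915534 in the Adora3 flank (0.511 and 0.348, the region with the ETS-IRF composite), and chr5:122731429-122731591 (0.319 and 0.205) and chr5:122733930-122734067 (0.277 and 0.205), both in Camkk2. The IRF8KO-specific regions were chr3:59114249-59114824 in an exon of P2ry14 (0.228 and 0.453), chr5:122668888-122669578 in an intron of P2rx7 (0.305 and 0.272) and chr5:122704573-122704826 upstream of P2rx4 (0.419 and 0.574). None of the 5 WT-specific regions remained when strict peaks were required to reach a −log10 q of 5. Just outside the windows, the nearest region was a WT-specific one 358 bp beyond the P2ry6 window (0.213 and 0.225).

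By size alone, 8 of the 55 regions had all WT libraries above all IRF8KO libraries and means at least 2-fold apart, against 12.6% of all regions tested, and 1 showed the converse, against 5.39%. At any fold, the groups were separate with WT higher in 20 regions, against 37.1% of all regions, and with IRF8KO higher in 5, against 11.9%. The number of strict peaks in the 6 windows was 77 and 80 in WT against 61 and 74 in IRF8KO. Means of 78.5 ± 2.12 and 67.5 ± 9.19 (SD, n = 2 each) differed by -11 (two-sided exact permutation p = 0.333, the smallest this design allows). IRF8KO replicate 1 had the fewest strict peaks in the windows and in the whole list, which held 83996 against 95921 in IRF8KO replicate 2 and 97473 and 98863 for WT. By window, the counts were 24 and 24 in WT against 17 and 20 in IRF8KO for P2ry12 with P2ry13, and 4 and 4 against 3 and 3 for Gpr34. They overlapped or met in the other windows, at 15 and 19 against 13 and 16 for Adora3, 15 and 15 against 12 and 16 for P2rx7 with P2rx4, 13 and 12 against 10 and 12 for P2ry6, and 6 and 6 against 6 and 7 for P2ry14. Strict peaks covered 21785 ± 522 base pairs in the WT libraries and 21059 ± 2305 in those of IRF8KO (SD, n = 2 each). The difference of -726 was larger than the WT SD and smaller than the IRF8KO SD.

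**Figure D4:**
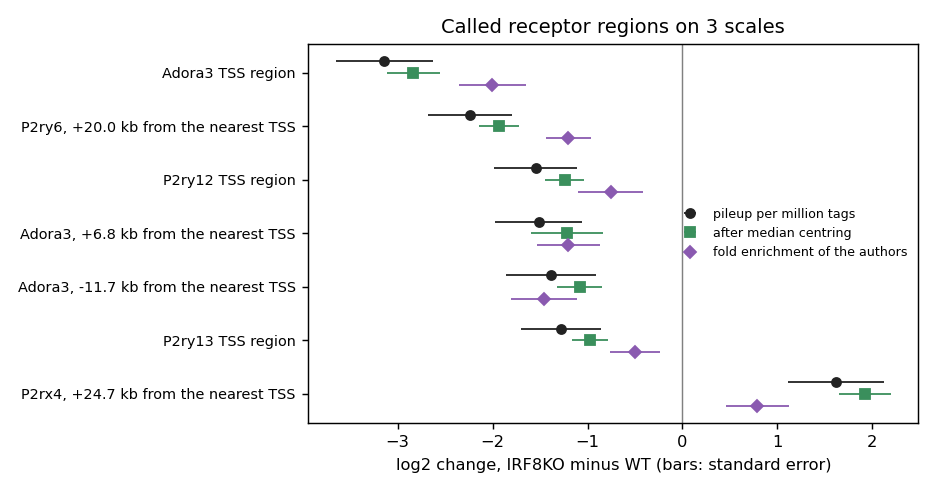
Log2 change, IRF8KO minus WT (x axis), of the 7 called receptor regions (y axis) as normalised pileup (black), after median centring (green) and as the authors' fold enrichment (purple); bars are standard errors from limma. All 3 scales keep the direction in each region, and for P2ry12 the change goes from -1.54 to -1.24 and -0.75.

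The calls, though not the direction of the changes, needed both WT libraries on the uncentred scale. Without WT replicate 1 none of the 6 lower regions was called, and without WT replicate 2 the Adora3 TSS region was the only one. The log2 changes stayed below 0: without WT replicates 1 and 2 in turn they were -3.02 and -3.26 at the Adora3 TSS, -2.07 and -2.40 in the P2ry6 intron and -1.22 and -1.87 at the P2ry12 TSS. With 1 WT library, limma takes the spread from the IRF8KO libraries alone. Without IRF8KO replicate 1, 5 of the 6 were called. The Camkk2 region lost its call without either WT library, with an adjusted p of 0.807 at the highest. Over the 4 fits that left out 1 library, the adjusted p of the P2ry12 TSS region ran from 5.92e-06 to 0.9999, that of the P2ry6 intron region from 2.03e-07 to 0.368, and that of the Adora3 TSS region from 1.91e-14 to 0.105. The direction stayed in each of these fits for all 7 regions. With centring, a combination chosen after the data were seen, 5 of the 6 remained called whichever library was left out. The exception was the small Adora3 region at chr3:105877587-105877774, whose adjusted p was 0.0651 to 0.0914, and the Camkk2 region also remained.

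ETS-IRF composites within 100 bp of the summit were found in 8 of the 96 receptor regions (8.33%), against 3.94% of all 155546 regions. Among all regions called lower in IRF8KO the share was 14.4%, and 1 of the 6 receptor regions called lower had one, the P2ry6 intron. Of the other 7, the P2ry14 intron region was called lower and the region upstream of P2rx4 higher after centring, and the large P2ry12 intron region and chr3:105891777-105892427 at Adora3 were called in neither fit. The last 3 lacked a peak in at least 1 library: the P2ry12 intron and Adora3 flank regions shown above, and chr3:105880387-105880568 in an Adora3 intron, with a peak of 0.225 in WT replicate 2 alone. PU.1 motifs occurred in 8 of the 96, against 7.09% of all regions, and in 3 of the 6 called lower, all at Adora3, where 14.5% of all regions called lower held one. The other 5 receptor regions with a PU.1 motif were not called. RUNX motifs were in 9 of 96, against 5.14%, AP-1 motifs in 3, against 5.44%, CEBP motifs in 10, against 8.82%, and the interferon-stimulated element in 4, against 2.88%. Of the 6 called lower, 2 held a RUNX motif, against 5.41% of all regions called lower. None of the 6 held an AP-1 motif, a CEBP motif or the interferon element, against 5.31%, 7.71% and 5.56%. The other receptor regions with a RUNX motif were not called without centring or entered no test. RefSeq promoters on GRCm38, short stretches around annotated starts, were matched for 6 of the 8 receptors with 10 starts. None of the 10 held the ETS-IRF letters, which occur in 2.72% of 32851 promoters. A match is a string of letters and not evidence of binding.

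Other genes of purinergic signalling and lipid sensing were counted as a list of 27 genes: further P2 and adenosine receptors, enzymes and carriers that make or clear extracellular nucleotides, and related orphan or lipid receptors such as Gpr183. Outside the receptor windows above it held 214 regions, of which 109 were compared. Of these, 5 were called lower and 3 higher in IRF8KO, against 6.82% and 2.81% of all regions tested, and after centring 14 lower and 16 higher, against 12.5% and 13.3%. The median log2 change was -0.37, against -0.31 for all regions. Regions lower in IRF8KO belonged to P2rx6, Adora1, Entpd1, Adk and Gpr183, and regions higher in IRF8KO to Nt5e, Enpp1 and Gpr183. Among the 214 regions, 8 were WT-specific and 17 IRF8KO-specific, against 5.58% and 3.86% of all regions.

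Of the 17 listed genes whose TSS region could be compared, 1 was called in each direction, against 2.59% lower and 0.676% higher of all TSS regions. Adora1, another adenosine receptor, was at 0.532 and 0.409 in WT against 0.140 and 0.136 in IRF8KO, without overlap (-1.76, adjusted p = 0.00606; -1.46 after centring, adjusted p = 0.0015). Nt5e, the ectoenzyme that makes adenosine from AMP, was at 0.490 and 0.327 in WT against 1.13 and 1.74 in IRF8KO, again without overlap (1.81, adjusted p = 0.00663; 2.11 after centring, adjusted p = 1.39e-09). After centring 2 were called in each direction, against 7.34% and 5.72% of all TSS regions. The added genes were P2rx1, an ATP-gated channel, at 0.852 and 0.900 in WT against 1.42 and 1.81 in IRF8KO (0.87, adjusted p = 0.277; 1.18 after centring, adjusted p = 3.84e-05), and Gpr183, a receptor for oxysterols, at 2.30 and 1.47 against 0.736 and 1.06 (-1.06, adjusted p = 0.14; -0.76 after centring, adjusted p = 0.00723). Entpd1, which breaks down ATP and ADP outside the cell, was at 4.35 and 3.804 in WT against 3.33 and 4.79 in IRF8KO, with overlapping groups.

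Markers of other cells moved with genotype in places. Endothelial TSS levels summed over 3 markers were 6.73 and 5.54 in WT against 0.926 and 1.34 in IRF8KO, almost all from Cdh5, which alone was at 5.86 and 4.81 and at 0.647 and 0.936, while Cldn5 was at 0.256 and 0.164 in WT and had no peak in IRF8KO. Summed border macrophage markers were 0.788 and 0.614 in WT against 1.87 and 3.02 in IRF8KO, from 2 of 4 markers, Mrc1 and Pf4. Cd163 and Lyve1 had no peak in any library. The 8 microglia or macrophage markers summed to 23.9 and 17.3 in WT against 11.97 and 18.03 in IRF8KO, with IRF8KO replicate 1 lowest. Of 5 monocyte or neutrophil markers 4 had no peak in any library, and the sum was 0.123 to 0.257. Oligodendrocyte markers summed to 2.04 and 1.47 in WT against 0.495 and 1.15 in IRF8KO, from Mbp and Mog. The 4 astrocyte markers summed to 1.09 and 0.532 in WT against 0.977 and 1.53 in IRF8KO and did not move together: Aldh1l1 was at 0.405 and 0.205 in WT against 0.850 and 1.53 in IRF8KO, whereas Gfap was at 0.426 and 0.327 in WT against 0.127 and no peak in IRF8KO, and Aqp4 had no peak in any library. The 3 neuron markers summed to 0.682 and 0.859 in WT against 0.343 and 0.468 in IRF8KO. The part of these markers in the receptor differences was not tested.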

How the data were processed

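ATAC-seq peak lists were used, 1 per library. Per the submitters' processing notes, bcl2fastq, Bowtie2, MACS2 2.1.1.20160309 and deepTools were used with mm10 (the same assembly as GRCm38). Peaks were called by the authors library by library at a p cutoff of 0.01, per the file headers, with cut sites moved by -37 bp and extended to 73 bp, which suits Tn5 insertions. The deposited pileup is a signal not scaled for depth. Their deposited fold enrichment divides pileup by the local background, so it is a ratio. The authors' p-values and q-values are deposited as −log10; q is declared uncalculated in the headers, yet its column is filled and was used.

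Repeated intervals were reduced to their highest summit. Strict peaks (autosomes and X) were merged, a peak overlapping a region by at least 1 bp counted as present, and pileup was divided by the tags in the header. A library without a peak has no value, so such regions entered no fit. limma 3.58.1 (R 4.3.3, trend and empirical Bayes, log2 scale, no pseudocount) was run over all 58550 regions and tested on simulated data. Motifs were searched with Python 3.11.15. Regions and genes named were all TSS, called, 2-fold and genotype-specific regions, plus the 3 genes closest to P2ry12. Regions called only after median centring, the largest introns, the P2ry12 intron region with an ETS-IRF composite and the other regions named were picked after their values were seen. The receptors, gene lists, motifs and tests were chosen with earlier results of these data known. Alternatives covered scaling, pseudocount, peak threshold, flank, overlap, fold, left-out libraries and a replicate block. A few further cell type markers are not reported here. The labels give replicate numbers only and do not say whether libraries of the same number were prepared together, and the main fit did not pair them.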

Additional observations from a re-analysis of the deposited data

How the results depend on the processing

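Counts of receptor regions were sensitive to scaling and to single libraries, and the cause was not tested except where fewer libraries or regions entered. Setting a library without a peak to its lowest deposited pileup let regions beyond the 55 compared above into the fit. The number that entered and the share of all regions called there are not given, so the counts from that fit show sensitivity only. The 6 regions called lower in IRF8KO became 3 with the authors' fold enrichment and 18 when a library without a peak was set to its lowest deposited pileup, and ranged from 0 to 16 with 1 library left out. The 1 called higher became 7 with median centring, 0 with fold enrichment, 4 with absent libraries filled in and 0 with gene bodies only, and ranged from 0 to 5 with 1 library left out, with or without centring. The 3 TSS regions called became 1 with fold enrichment and ranged from 0 to 4 with 1 library left out. The 5 WT-specific regions became 0 at a −log10 q of 5, 11 when a peak had to cover at least 50% of a region, 1 with gene bodies only and 8 with flanks of 25 kb, and ranged from 5 to 12 with 1 library left out. The 3 IRF8KO-specific regions became 7 with all deposited peaks and 5 with the 50% overlap, and ranged from 3 to 10. The 8 regions past the 2-fold limit with WT higher became 5 with centring, 4 with fold enrichment, 5 with gene bodies only, 17 at 1.5-fold and 2 at 3-fold, and ranged from 6 to 19. The 1 with IRF8KO higher became 2 with centring, 0 with gene bodies only, 3 with flanks of 25 kb and 3 at 1.5-fold, and ranged from 1 to 2. The difference of -11 strict peaks kept its sign in all 8 alternatives, from -17.5 to -2.5.

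With the replicate number as a block, 1 region was called lower, the Adora3 TSS region, and 0 higher, and 1 TSS region was called. Libraries of the same number did not deviate together (r = 0.00438 over 58550 regions). With the block and median centring together, a combination chosen after the data were seen like the centred fits with a library left out, 6 regions were called higher and 9 lower, the 6 lower ones without centring among them. The shares of all regions called with a block are not given, so these counts show sensitivity only.

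Where leaving out 1 library left 1 of a genotype, limma took its spread from the other genotype. Small changes at start sites that were not called reversed with single libraries. With 1 library left out and no centring, P2ry14 ranged from -0.43 (without IRF8KO replicate 2) to 0.66, P2rx7 from -0.089 (without WT replicate 2) to 0.44, and P2ry6 from -0.12 (without IRF8KO replicate 2) to 0.28, with -0.08 without WT replicate 2. P2rx4 was at 0.11 with centring and without WT replicate 2, and at 0.055 with centring and without IRF8KO replicate 2. With centring and 1 library left out, P2rx7 reached 0.63 and P2ry6 0.502. The Gpr34 start site ranged from -1.59 to -0.51, with or without centring, and was called in 1 of these fits, the uncentred one without IRF8KO replicate 2. Pileups of 8 to 20 in the weakest called values limit their precision.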
